A study of Mus musculus with 24 samples.

Results

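Genes of the Wnt pathway and of intestinal stem cells were followed in mouse colon: Axin2, Lgr5, Ascl2, Myc, Cd44, Sox9, Wif1, Ephb2, Rnf43 and Apcdd1, which the deposited gene table lists in capitals (AXIN2, LGR5, ASCL2, MYC, CD44, SOX9, WIF1, EPHB2, RNF43 and APCDD1). These 10, of the 18097 targets in the table, were chosen by name. Of these, 9 lay above the filter on dim signals and were tested among 9048 targets. Myc lay below it.

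RNA came from colon of C57Bl/6 mice collected at 14 weeks of age and was measured on 24 single-colour Illumina bead arrays. The first group, ApcMin ATB-346, held 6 arrays from mice with the APCMin/+ genotype given 14.5 mg/kg of ATB-346, an NSAID that the study's title describes as releasing hydrogen sulfide. The second, ApcMin naproxen, held 6 arrays from APCMin/+ mice given 10 mg/kg of naproxen, an NSAID that blocks cyclooxygenases. The third, ApcMin vehicle, held 8 arrays from APCMin/+ mice given 0.05% DMSO and 0.95% carboxymethylcellulose, and the last, WT vehicle, held 4 arrays from wild-type mice given the same vehicle. Dosing was by gavage once a day for 7 days from 6 weeks of age, so the tissue was taken 7 weeks after the last dose. ApcMin is a point mutation that truncates the Apc protein encoded by 1 copy of the gene, in every cell of the mouse. The labels do not say whether the pieces of colon held tumours, or that different arrays stand for different mice. The p-values below therefore cover the array-to-array spread alone, and some of that may be technical.

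Wnt ligands bind Frizzled and LRP receptors and stop a complex built on Apc and axin from marking beta-catenin for destruction. Beta-catenin then enters the nucleus and switches on genes through TCF and LEF proteins. At the base of the colonic crypt this signal keeps stem cells dividing, and loss of Apc turns the same genes on in tumours. Several targets feed back on the pathway: Axin2 rebuilds the destruction complex, Rnf43 is a ubiquitin ligase that removes Frizzled receptors from the cell surface, Wif1 is a secreted protein that binds Wnt ligands, and Apcdd1 is a membrane protein that inhibits Wnt signalling. Lgr5, a receptor for R-spondins, and Ascl2, a transcription factor, mark crypt base stem cells. Ephb2 is a receptor tyrosine kinase that positions cells along the crypt, Sox9 is a transcription factor of the crypt base, Cd44 is a hyaluronan receptor, and Myc is a transcription factor of growth.

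Promoter sequences from RefSeq (GRCm38.p6) were searched for 6 of the 10 genes. Lgr5, Sox9 and Myc had no promoter window, and Apcdd1 was left out of the search. The 250 bases before the start site are shown, 5′ to 3′ on the gene's own strand, for Wif1 (chr10:121033754-121034003, + strand) and Cd44 (chr2:102901666-102901915, − strand), whose signals rose together with a marker of the array described further on, and for Axin2 (chr11:108920099-108920348, + strand), whose signal did not pass that test. Apcdd1 passed that test too but was not searched. Capitals mark CTTTG, the first 5 letters of the site of TCF and LEF proteins, or CAAAG, the same letters on the other strand.
Wif1: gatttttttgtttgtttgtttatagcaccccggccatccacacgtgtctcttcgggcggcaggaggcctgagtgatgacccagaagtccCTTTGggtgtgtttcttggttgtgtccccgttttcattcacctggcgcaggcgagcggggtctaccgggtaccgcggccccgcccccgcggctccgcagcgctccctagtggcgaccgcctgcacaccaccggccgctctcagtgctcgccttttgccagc
Cd44: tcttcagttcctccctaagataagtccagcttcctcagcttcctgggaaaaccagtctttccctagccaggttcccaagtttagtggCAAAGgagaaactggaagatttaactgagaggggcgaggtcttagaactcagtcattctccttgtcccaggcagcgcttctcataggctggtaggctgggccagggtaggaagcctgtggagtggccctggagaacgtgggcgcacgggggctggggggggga
Axin2: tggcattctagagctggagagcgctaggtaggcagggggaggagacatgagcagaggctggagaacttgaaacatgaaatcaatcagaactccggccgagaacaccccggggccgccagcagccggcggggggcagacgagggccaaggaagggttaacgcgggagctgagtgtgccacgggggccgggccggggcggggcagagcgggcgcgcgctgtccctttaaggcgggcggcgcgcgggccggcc

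In windows from 250 bases before to 50 bases after the start, the 7-letter site was searched on both strands in its forms CTTTGAA (the first form), CTTTGAT (the second), CTTTGTA (the third) and lastly CTTTGTT, all of which contain CTTTG. None was present in the 7 windows of the 6 genes (Rnf43 has 2). Of the 32851 promoter windows of that length that were searched, 16.9% held at least 1. CTTTG itself was present in 2 of the 7 windows, those of Wif1 at position -161 and Cd44 at position -163 from the start site. Among the 32851 windows searched, 53.9% held it. These counts describe letters in a short window and say nothing about binding.

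Signals are normalized log2 intensities throughout, and the lowest value any target could take was 5.65. Medians of the raw arrays lay between 81.4 and 102.9, and precision is limited by how many arrays each group holds. Arrays that the labels number as replicates 5 to 8 (4 vehicle, 2 naproxen and 2 ATB-346) differed from those numbered 1 to 4 (4 in each group) in 37.1% of all tested targets (14.7% higher and 22.4% lower), so this number set was a term in the model. All WT arrays are numbered 1 to 4. Defining epithelial genes were high on every array, with a mean over 7 tested markers of 11.95 to 12.70. Slc26a3, an anion exchanger of colonic surface cells and the other epithelial marker in the table, was too dim to test at 5.97 to 6.89. The mean of 14 pancreatic acinar markers ran from 6.72 to 6.98 in ATB-346, 6.75 to 10.16 in naproxen, 6.83 to 14.01 in vehicle and 6.77 to 7.26 in WT arrays. Osr2, a zinc finger transcription factor, spanned 6.61 to 13.01 over the arrays. In bulk colon, fewer cells of a type and less RNA per cell cannot be told apart.

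**Figure D1:**
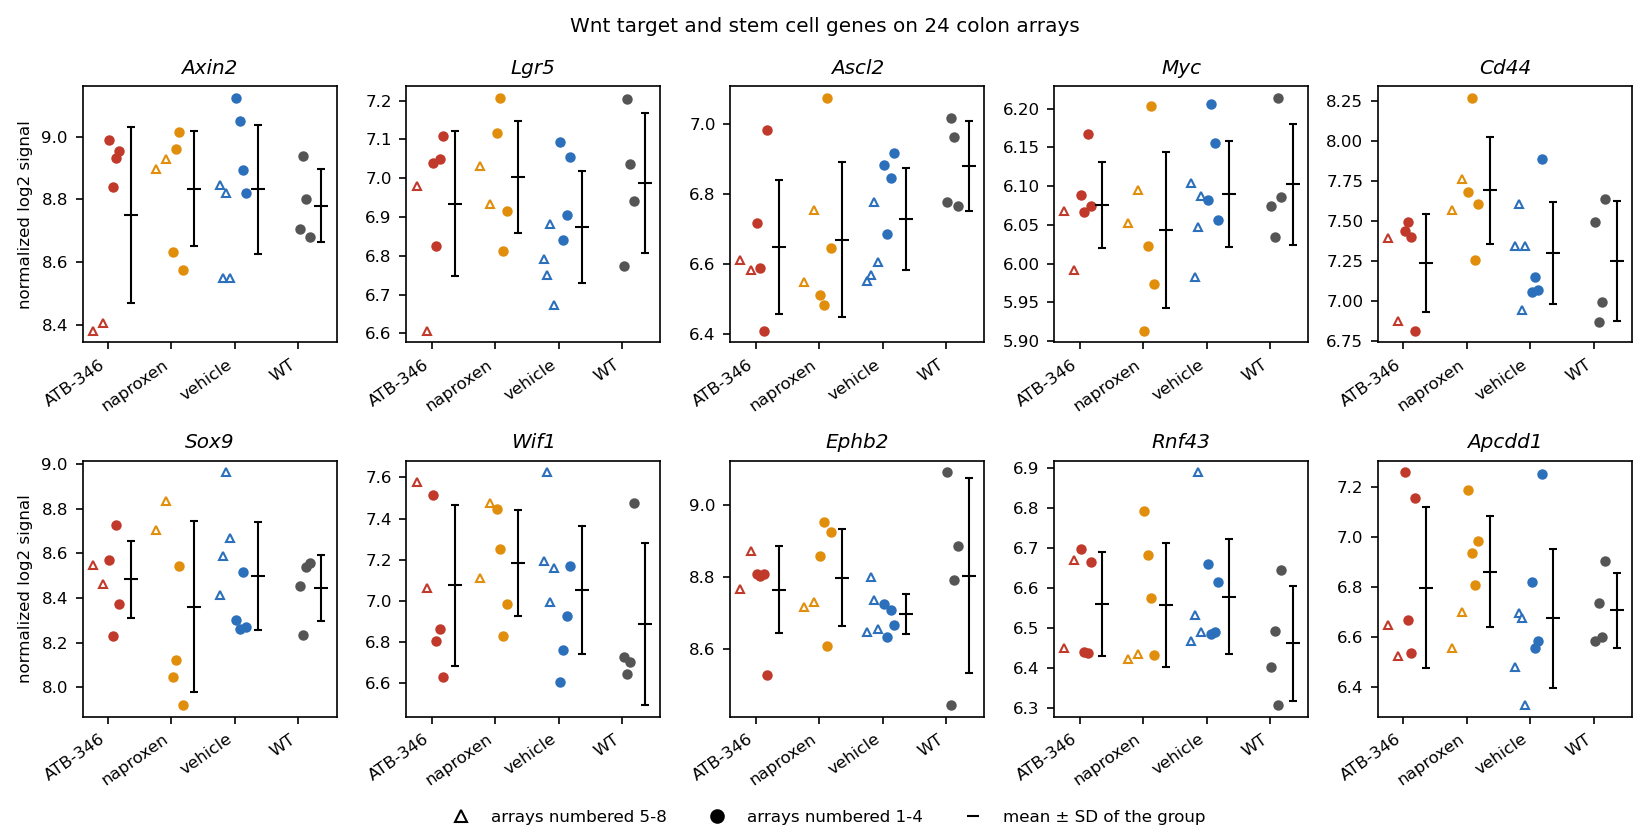
Each panel plots the normalized log2 signal (y axis) of 1 gene by group (x axis); open triangles are arrays numbered 5 to 8, filled circles those numbered 1 to 4, and the bar to the right of each group is its mean ± SD. The groups overlap in every panel, and the lowest Axin2 values are the 2 ATB-346 arrays numbered 5 and 6, at 8.38 and 8.41.

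None of the 9 tested genes was called in any of the 6 comparisons between groups (limma, Benjamini-Hochberg adjusted p under 0.05). Of all tested targets, limma called 0.309% for ATB-346 against vehicle (0.188% higher and 0.122% lower) and 0% in each of the other 5 comparisons. At an unadjusted p under 0.05 the count among the 9 was 1 for naproxen against vehicle, 1 for ATB-346 against naproxen and 1 for naproxen against WT, in each case Cd44, and 0 in the other 3. Over all 9048 targets such counts were 1213 for ATB-346 against vehicle, 1122 for naproxen against vehicle, 952 for ATB-346 against naproxen, 518 for ATB-346 against WT, 769 for naproxen against WT and 426 for ApcMin vehicle against WT.

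The comparison of ApcMin vehicle with WT asked whether an APCMin/+ genotype alone moved these Wnt readouts in colon. Of the 9 genes, 5 lay higher and 4 lower in ApcMin, with a median difference of 0.01 on the log2 scale against -0.01 over all tested targets. The differences ran from -0.11 to 0.17, and every adjusted p was 0.9998 or above by limma. Axin2, the most general reporter of beta-catenin activity in many tissues, had 8.55, 8.83 and 9.12 as lowest, median and highest signal in ApcMin vehicle arrays, against 8.70, 8.94, 8.80 and 8.68 in the 4 WT arrays. The groups overlapped. With the number set in the model, Axin2 was 0.17 ± 0.12 (SE) higher in ApcMin, with a 95% interval of -0.07 to 0.41.

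Lgr5 had 6.67, 6.86 and 7.09 as lowest, median and highest signal in ApcMin vehicle arrays, against 6.77, 7.20, 7.04 and 6.94 in WT arrays. Of the 4 WT values 3 lay inside the ApcMin range, and the difference was -0.04 (95% interval -0.24 to 0.16). Ascl2 had 6.55, 6.73 and 6.92 in ApcMin vehicle arrays, against 6.78, 7.02, 6.96 and 6.77 in WT arrays. Its difference was -0.09 (-0.32 to 0.14), although the highest ApcMin value lay below 2 of the 4 WT values. Ephb2 had 8.63, 8.69 and 8.80 in ApcMin vehicle arrays, against 9.09, 8.44, 8.79 and 8.89 in WT arrays. The WT arrays here spread more than the ApcMin vehicle arrays, with an SD of 0.27 (n = 4) beside 0.06 (n = 8) for vehicle.

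Rnf43 had 6.47, 6.51 and 6.89 in ApcMin vehicle arrays, against 6.40, 6.49, 6.31 and 6.64 in WT arrays, a difference of 0.14 (-0.06 to 0.33). Sox9 had 8.26, 8.46 and 8.96 in ApcMin vehicle arrays, against 8.45, 8.24, 8.54 and 8.56 in WT arrays, a difference of -0.11 (-0.39 to 0.17). Both ranges overlapped. Apcdd1 differed by 0.12 (-0.17 to 0.41), Cd44 by 0.07 (-0.36 to 0.50) and Wif1 by 0.01 (-0.38 to 0.40). The intervals for Cd44 and Wif1 were the widest of the 9, so these arrays bound a difference in them least.

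Myc stood near the floor in all groups. It averaged 6.08 ± 0.06 in ATB-346 (SD, n = 6), 6.04 ± 0.10 in naproxen (n = 6), 6.09 ± 0.07 in vehicle (n = 8) and 6.10 ± 0.08 in WT arrays (n = 4). When all 18097 targets were tested, Myc differed by 0.01 (-0.10 to 0.11) for ApcMin vehicle against WT, by -0.02 (-0.11 to 0.07) for ATB-346 against vehicle and by -0.05 (-0.14 to 0.04) for naproxen against vehicle. Its 2 probes, both below the probe filter, lay on opposite sides of 0 for naproxen against vehicle, at 0.07 (-0.02 to 0.16) and -0.15 (-0.29 to -0.01), with adjusted p-values of 0.615 and 0.509 over all probes by limma. Signals this dim carry the added background offset, which draws differences towards 0, so a change of Myc was not detectable here rather than absent.

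The comparisons of each drug with vehicle asked what 7 days of treatment had left in ApcMin colon 7 weeks later. For ATB-346, 5 of the 9 genes lay higher and 4 lower than in vehicle, with a median of 0.04 against 0.01 over all tested targets, and the smallest adjusted p among the 9 was 0.650 (limma). Axin2 had 8.38, 8.89 and 8.99 as lowest, median and highest signal in ATB-346 arrays, against 8.55, 8.83 and 9.12 in vehicle arrays, a difference of -0.12 ± 0.10 (SE). The 95% interval was -0.32 to 0.08. The stem cell marker Lgr5 had 6.61, 7.01 and 7.11 in ATB-346 arrays, against 6.67, 6.86 and 7.09 in vehicle arrays, a difference of 0.04 (-0.13 to 0.20). Ascl2, the other stem cell marker, had 6.41, 6.60 and 6.98 in ATB-346 arrays, against 6.55, 6.73 and 6.92 in vehicle arrays, a difference of -0.10 (-0.29 to 0.09). The groups overlapped for all 3 genes. Lgr5 and Ascl2 were dim, with means of 6.94 and 6.72 over all arrays, as were Apcdd1 at 6.76 and Rnf43 at 6.55, just above the filter. The background offset added to every signal draws the differences of these 4 genes towards 0, and their intervals hold for these signals only. Wif1 averaged 7.06 and Cd44 7.37, so the same applies to them in part.

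The remaining genes of the ATB-346 comparison differed by 0.07 or less in size. These were Cd44 at -0.07 (-0.43 to 0.29), Sox9 at 0.04 (-0.19 to 0.27), Wif1 at 0.07 (-0.25 to 0.40), Ephb2 at 0.07 (-0.10 to 0.23), Rnf43 at -0.03 (-0.19 to 0.14) and Apcdd1 at 0.07 (-0.17 to 0.32).

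**Figure D2:**
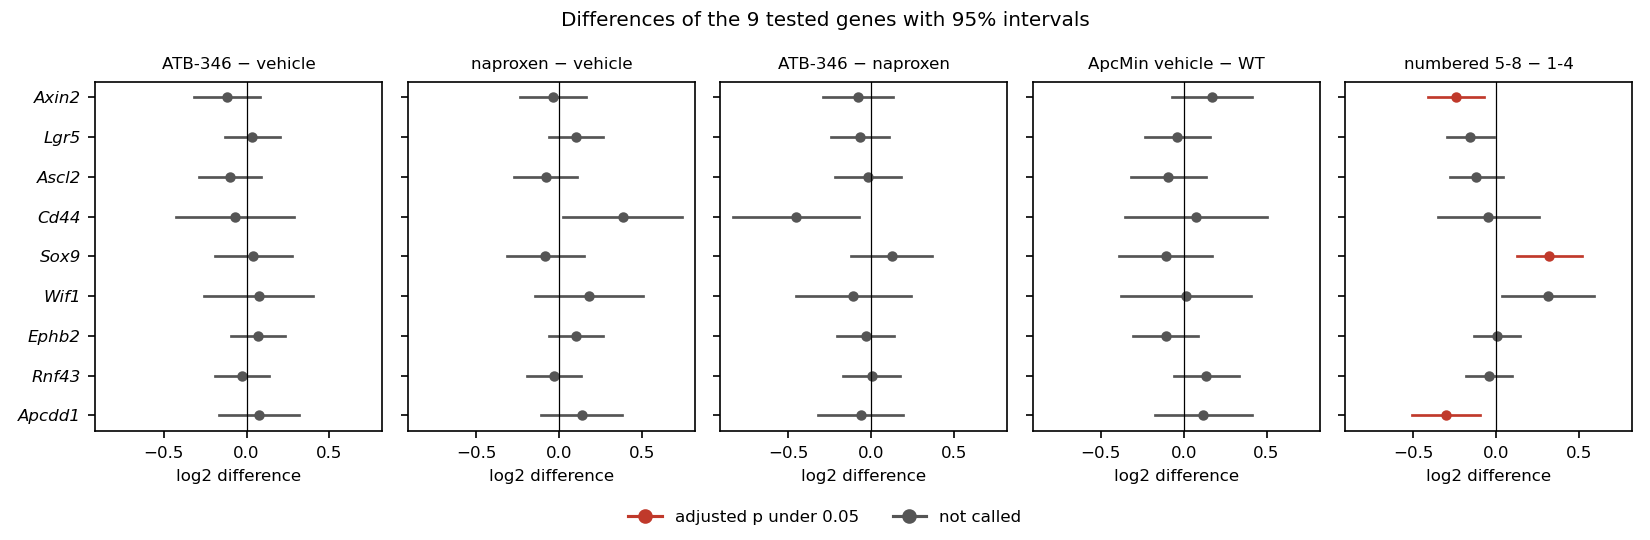
Points are log2 differences (x axis) of the 9 tested genes (y axis) in 4 comparisons between groups and between arrays numbered 5 to 8 and 1 to 4, with 95% intervals; red marks an adjusted p under 0.05. Only the last panel holds red points, Axin2 at -0.24, Sox9 at 0.32 and Apcdd1 at -0.30, and Cd44 has the 2 intervals between drug groups that leave out 0.

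In naproxen against vehicle, Cd44 had the largest difference of the 9 genes. Naproxen arrays had 7.26, 7.64 and 8.27 as lowest, median and highest signal, against 6.94, 7.25 and 7.88 in vehicle arrays. The ranges overlapped, with vehicle replicates 4, 5, 6 and 8 at 7.88, 7.35, 7.61 and 7.34 above the lowest naproxen array at 7.26. Only the highest naproxen array, at 8.27, lay above every vehicle array. The difference was 0.38 ± 0.17 (SE), with a 95% interval of 0.03 to 0.74, but it did not pass over all targets (unadjusted p = 0.0366, adjusted p = 0.396 by limma). Cd44 was also 0.46 ± 0.21 above WT (7.50, 6.87, 7.00 and 7.64), with an adjusted p of 0.583. Between the drugs it was -0.45 ± 0.18 in ATB-346 (6.82, 7.40 and 7.49 as lowest, median and highest) relative to naproxen, with an adjusted p of 0.375.

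The Cd44 difference moved with Osr2. Osr2 read 10.64 to 12.81 on all naproxen arrays, against 6.64 to 12.90 on vehicle arrays, where replicates 1, 2 and 3 lay at 6.70, 6.74 and 6.64. With the Osr2 level as a term in the model, Cd44 differed by 0.08 ± 0.14 (SE) for naproxen against vehicle, by -0.23 ± 0.14 for ATB-346 against naproxen and by 0.13 ± 0.17 for naproxen against WT. With the acinar marker mean as a term, the naproxen difference from vehicle was 0.24. Within arrays numbered 5 to 8 that difference was 0.36 and within those numbered 1 to 4 it was 0.41. What part Osr2 or the acinar signal has in the difference was not tested.

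The array holds 6 Cd44 probes, and the gene table's value is their mean before normalization. Of the 6, 4 lay above the probe filter, with naproxen differences from vehicle of 0.38 to 0.50, and the 2 dimmest gave 0.10 and -0.00. The brightest probe, with a mean signal of 8.78, differed by 0.50 (0.12 to 0.88) for naproxen against vehicle and by -0.65 (-1.06 to -0.25) for ATB-346 against naproxen, with adjusted p-values of 0.469 and 0.456 over all 25697 probes (limma). Its correlation with the other 5 probes across the 24 arrays was 0.24 to 0.78. CD44 is spliced into many isoforms, and the files do not say which exon a probe reads.

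**Figure D3:**
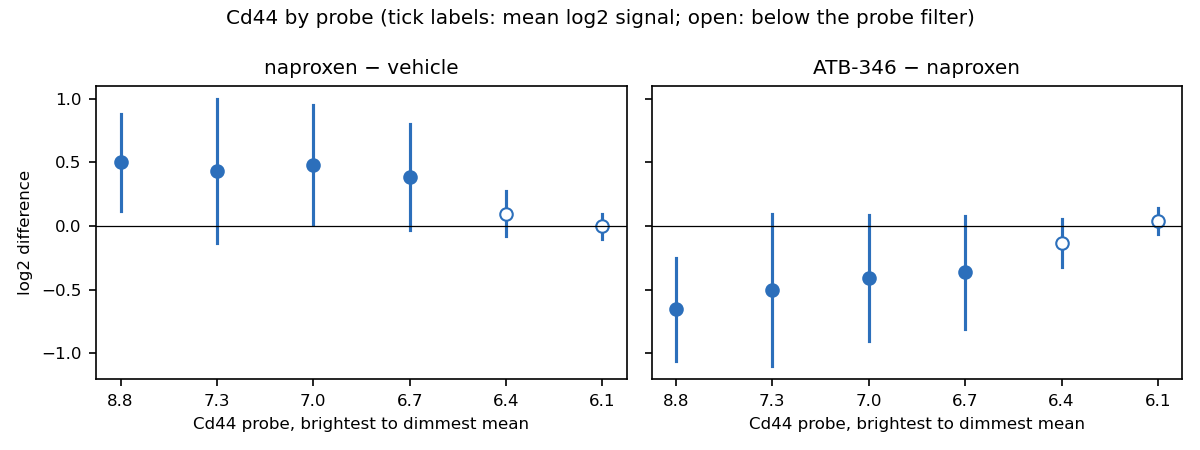
Log2 differences with 95% intervals (y axis) for the 6 Cd44 probes in order of mean signal (x axis, tick labels), for naproxen against vehicle on the left and ATB-346 against naproxen on the right; open circles lie below the probe filter. The brightest probe differs by 0.50 and -0.65, and the 2 dimmest lie near 0.

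For the other genes, differences between naproxen and vehicle were smaller than for Cd44, and none was called. Wif1 had 6.83, 7.18 and 7.48 as lowest, median and highest signal in naproxen arrays, against 6.60, 7.08 and 7.62 in vehicle arrays, a difference of 0.18 (-0.15 to 0.51). Apcdd1 had 6.56, 6.87 and 7.19 in naproxen arrays, against 6.33, 6.63 and 7.25 in vehicle arrays, a difference of 0.14 (-0.11 to 0.38). Neither separated the groups. Lgr5 and Ephb2 each differed by 0.10 (-0.06 to 0.27), Ascl2 by -0.08 (-0.27 to 0.11), Sox9 by -0.08 (-0.31 to 0.15), Axin2 by -0.04 (-0.24 to 0.16) and Rnf43 by -0.03 (-0.19 to 0.13). Of the 9, 5 lay higher and 4 lower, with a median of 0.10 against 0.01 over all tested targets.

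ATB-346 and naproxen were given at different doses, so their values are set side by side without a reading of potency. Relative to naproxen, 2 of the 9 genes lay higher in ATB-346 and 7 lower, with a median of -0.06 against 0.00 over all tested targets. Apart from Cd44, the differences lay between -0.11 (Wif1) and 0.12 (Sox9), with 95% intervals of -0.29 to 0.13 for the signal of Axin2 and -0.24 to 0.11 for that of Lgr5. Against WT, ATB-346 differed most for Ascl2, at -0.19 (-0.42 to 0.04), and Apcdd1, at 0.19 (-0.10 to 0.49). Naproxen differed from WT, beside Cd44, by 0.26 (-0.04 to 0.55) for Apcdd1. These comparisons share their vehicle, drug or WT arrays with those above.

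The largest differences of Axin2, Sox9 and Apcdd1 in these arrays lay between the number sets rather than between genotypes or treatments. Of the 9 genes, 3 were called for arrays numbered 5 to 8 against 1 to 4 (limma), or 1 higher and 2 lower, beside 37.1% of all tested targets. Axin2 was 0.24 ± 0.08 (SE) lower in arrays 5 to 8 (adjusted p = 0.0256), Apcdd1 was 0.30 ± 0.10 lower (adjusted p = 0.0205), and Sox9 was 0.32 ± 0.09 higher (adjusted p = 0.0111). Lgr5 at -0.15 (adjusted p = 0.0750) and Wif1 at 0.31 (adjusted p = 0.0693) did not pass. The labels give no reason for the numbering, and what the sets differ in was not tested. The fibroblast and matrix marker mean had a median of 10.00 in arrays 5 to 8 (range 9.60 to 10.36) and 9.72 in arrays 1 to 4 (9.55 to 10.04), and the proliferation marker mean 8.74 (8.52 to 8.95) and 8.44 (8.22 to 9.01). The epithelial marker mean had a median of 12.57 in arrays 5 to 8 (12.27 to 12.70) and 12.32 in arrays 1 to 4 (11.95 to 12.53), and the immune marker mean 9.04 (8.63 to 9.23) and 8.94 (8.54 to 9.40). These medians pool the groups, which the 2 sets hold in different shares. With group in the model, 7 of 9 immune markers lay lower in arrays 5 to 8 and 2 higher, with a median difference of -0.17. Higher there were 7 of 10 fibroblast and matrix, 5 of 7 proliferation and 6 of 7 epithelial markers, with medians of 0.10, 0.11 and 0.12. The median over all tested targets was -0.07. Single markers called in that model were 3 of 10 for fibroblasts and matrix, 2 of 7 for proliferation and 2 of 7 for epithelium, all higher in arrays 5 to 8. For immune cells 4 of 9 were called, 2 in each direction.

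Axin2 read 8.38 and 8.41 in the ATB-346 arrays numbered 5 and 6, against 8.99, 8.84, 8.93 and 8.96 in those numbered 1 to 4, with no overlap. In vehicle it read 8.85, 8.55, 8.82 and 8.55 in arrays 5 to 8, against 9.12, 9.05, 8.90 and 8.82 in arrays 1 to 4, and the sets overlapped between 8.82 and 8.85. In naproxen it read 8.90 and 8.93 in arrays 5 and 6, against 8.63, 8.96, 9.01 and 8.58 in arrays 1 to 4. The set difference was thus -0.53 ± 0.12 (SE, adjusted p = 0.00693) in ATB-346, 0.12 ± 0.12 (adjusted p = 0.601) in naproxen and -0.28 ± 0.10 (adjusted p = 0.0525) in vehicle by limma, where 8.05%, 13.8% and 20.1% of all tested targets were called. The naproxen difference from vehicle in Axin2 was 0.40 ± 0.16 larger in arrays 5 to 8 than in arrays 1 to 4 (0.07 to 0.72), which did not pass over all targets (unadjusted p = 0.0206, adjusted p = 0.9999 by limma). For ATB-346 the corresponding value was -0.25 (-0.58 to 0.07). Limma called 0% of targets in either of these tests between the sets. The Axin2 call was lost without any 1 of 5 arrays (vehicle replicates 1, 6 and 8 and ATB-346 replicates 5 and 6, with adjusted p-values of 0.0506 to 0.0740), with median scaling (0.0978) and with Osr2 in the model (0.0607).

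Sox9 read 8.71 and 8.84 in naproxen arrays 5 and 6, against 8.05, 8.12, 8.54 and 7.92 in arrays 1 to 4. In vehicle it read 8.41, 8.59, 8.96 and 8.67 in arrays 5 to 8, against 8.30, 8.26, 8.52 and 8.27, and in ATB-346 it read 8.55 and 8.46 in arrays 5 and 6, against 8.57, 8.23, 8.73 and 8.37. The sets did not overlap in naproxen, by 0.61 ± 0.16 (SE, adjusted p = 0.0140), and overlapped in vehicle (0.32 ± 0.13, adjusted p = 0.0944) and ATB-346 (0.03 ± 0.16, adjusted p = 0.946) by limma. The difference between these group values did not pass a test for either drug (0.29 ± 0.21 for naproxen and -0.29 ± 0.21 for ATB-346, both against vehicle). Apcdd1 did not pass within any single group, with set differences of -0.32 (-0.72 to 0.09) in ATB-346, -0.35 (-0.75 to 0.05) in naproxen and -0.26 (-0.59 to 0.07) in vehicle.

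**Figure D4:**
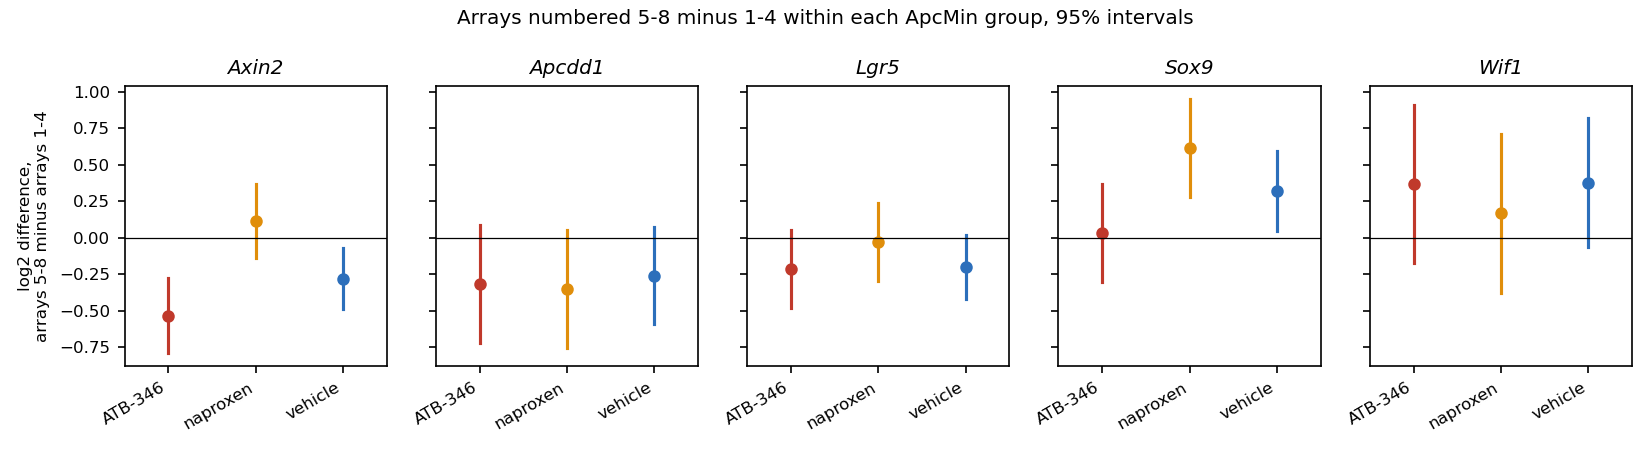
The y axis is the log2 difference of arrays numbered 5 to 8 minus those numbered 1 to 4 in the same ApcMin group (x axis), with 95% intervals, for 5 genes. Axin2 lies at -0.53 in ATB-346, 0.12 in naproxen and -0.28 in vehicle, and Apcdd1 at -0.26 to -0.35 in all groups.

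Wif1, Cd44 and Apcdd1 rose with Osr2 from array to array, with group and number set in the model. Their slopes were 0.117 ± 0.015 (SE, adjusted p = 5.44e-06), 0.102 ± 0.023 (adjusted p = 0.00214) and 0.068 ± 0.016 (adjusted p = 0.00280) log2 units per log2 unit of Osr2 by limma. Without the number set in the model the Apcdd1 slope was 0.043 and did not pass (adjusted p = 0.184 by limma). This is 3 of 9 genes, all upward, beside 26.7% of all tested targets (13.5% upward and 13.2% downward). The other 6 did not pass, with Axin2 at -0.032 ± 0.017 (adjusted p = 0.169) and Ephb2, Rnf43, Lgr5, Sox9 and Ascl2 between -0.012 and 0.020.

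The pattern can be read off single arrays. In ATB-346, Wif1 was 7.51 and 7.58 on replicates 1 and 5, where Osr2 was 12.90 and 12.81, and 6.86 and 6.63 on replicates 3 and 4, where Osr2 was 7.57 and 7.62. In vehicle, Wif1 was 6.60, 6.76 and 6.93 on replicates 1 to 3 with Osr2 at 6.70, 6.74 and 6.64, and 7.62 on replicate 6 with Osr2 at 12.84, but only 7.17 on replicate 4 with Osr2 at 12.90. In WT, Wif1 was 7.47 on replicate 4 with Osr2 at 13.01, and 6.64 to 6.72 on the other 3 with Osr2 at 6.61 to 7.24. In naproxen, Osr2 was high on all arrays and Wif1 was 7.45, 7.25, 6.83, 6.99, 7.11 and 7.48 on replicates 1 to 6, the 6.99 standing beside an Osr2 of 12.37. Arrays with middling Osr2 varied too, with Wif1 at 7.19 on vehicle replicate 5 (Osr2 9.42) and 6.81 on ATB-346 replicate 2 (Osr2 9.57).

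After group and number set means were removed, Wif1 and Osr2 correlated with r = 0.87 and rho = 0.71 over 24 arrays (permutation p = 1e-05, the smallest the 100000 permutations can give, and 0.00013, or 3e-04 and 0.0039 adjusted over 90 relations). Without the 2 arrays farthest in Osr2 r was 0.85, and it was 0.91 in the 8 arrays numbered 5 to 8 and 0.86 in the 16 numbered 1 to 4. Here and below, the permutations shuffled all 24 residuals freely, although group and number set means had been removed. Permutation p-values are therefore too small, and narrow passes may not hold. Cd44 gave r = 0.69 and rho = 0.61 (permutation p = 1e-04 and 0.00181, adjusted 0.0018 and 0.0233), 0.58 without the 2 farthest arrays, 0.78 in arrays 5 to 8 and 0.68 in arrays 1 to 4. Apcdd1 gave r = 0.69 and rho = 0.65 (permutation p = 1e-04 and 0.00064, adjusted 0.0018 and 0.0140), 0.59 without the 2 farthest arrays, 0.54 in arrays 5 to 8 and 0.72 in arrays 1 to 4. Among the arrays numbered 5 to 8 alone, none of the 3 slopes passed over all targets, at 0.155 for Wif1 (adjusted p = 0.0711), 0.135 for Cd44 (0.173) and 0.045 for Apcdd1 (0.642) by limma. In arrays 1 to 4 all 3 passed, at 0.112, 0.101 and 0.074 (adjusted p = 0.000537, 0.0212 and 0.0140). The Cd44 slope was 0.067 (adjusted p = 0.126) for its brightest probe.

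**Figure D5:**
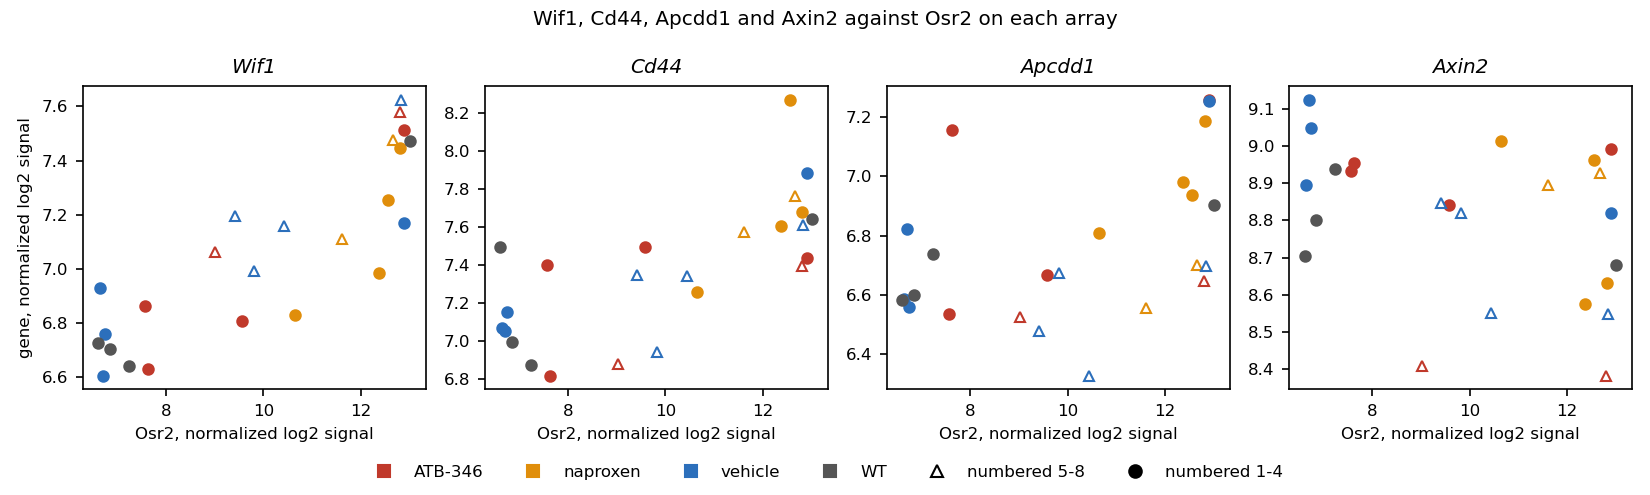
Each point is 1 array, with the normalized log2 signal of Osr2 on the x axis and that of the named gene on the y axis; colours are groups, open triangles arrays numbered 5 to 8 and filled circles those numbered 1 to 4. Wif1 rises most evenly with Osr2 (r = 0.87 after group and set means were removed), and Axin2 does not rise.

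Apcdd1 also rose with adipocyte markers. Its slope on the mean of the 4 tested adipocyte markers (Adipoq, Cfd, Lep and Plin4) was 0.262 ± 0.034 (SE, adjusted p = 8.00e-05 by limma), the only one of the 9 genes called, beside 2.86% of all tested targets (1.59% upward and 1.27% downward). Apcdd1 read 7.26 and 7.16 on ATB-346 replicates 1 and 4, 7.19 on naproxen replicate 1 and 7.25 on vehicle replicate 4, and 6.33 to 6.98 on the other 20 arrays. The adipocyte mean ran from 7.91 to 10.29 in ATB-346, 9.33 to 10.13 in naproxen, 8.20 to 10.79 in vehicle and 9.48 to 10.32 in WT arrays. The other 3 of the 7 listed adipocyte markers, Fabp4, Plin1 and Retn, were too dim to test, with highest signals of 6.15, 6.44 and 6.19. What part fat tissue has in the Apcdd1 slope was not tested. With both terms in the model the adipocyte slope of Apcdd1 was 0.223 (adjusted p = 0.0169) and its Osr2 slope 0.020 (adjusted p = 0.360). The adipocyte slope was 0.557 (adjusted p = 0.618) in arrays 5 to 8 and 0.266 (adjusted p = 0.00211) in arrays 1 to 4. Its residuals correlated with the adipocyte mean at r = 0.88 and rho = 0.83 (permutation p = 1e-05 for both, adjusted 3e-04 and 9e-04) and with the mean of 5 goblet cell markers at r = -0.81 and rho = -0.79 (permutation p = 1e-05 and 2e-05, adjusted 3e-04 and 9e-04). Rnf43 also ran opposite to the goblet mean (r = -0.69, rho = -0.65, permutation p = 0.00021 and 0.00087, adjusted 0.00315 and 0.0140).

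Further relations of the 90 passed on r, by permutation p-values that run too small for the reason given above. These passes may therefore not hold. Lgr5 and Ascl2, the crypt base stem cell markers, ran opposite to the epithelial marker mean (r = -0.56 and -0.55, permutation test, adjusted p = 0.0368 and 0.0419; rho = -0.53 and -0.56, adjusted p = 0.0584 and 0.0491), with r of -0.55 and -0.42 without the 2 farthest arrays. In arrays 5 to 8 these were -0.70 and -0.48, and in arrays 1 to 4 -0.51 and -0.60. Ephb2 ran with the epithelial mean (r = 0.59, rho = 0.54, permutation test, adjusted p = 0.0246 and 0.0543), at 0.60 without the 2 farthest arrays, but at 0.06 in arrays 5 to 8 against 0.76 in arrays 1 to 4. Axin2 and Sox9 ran with the fibroblast and matrix mean (r = 0.57 and 0.55, permutation test, adjusted p = 0.0305 and 0.0390; rho = 0.55 and 0.47, adjusted p = 0.0491 and 0.130), at 0.54 and 0.43 without the 2 farthest arrays, 0.62 and 0.65 in arrays 5 to 8 and 0.54 and 0.48 in arrays 1 to 4. Rnf43 ran opposite to the proliferation mean (r = -0.60, rho = -0.65, permutation test, adjusted p = 0.0234 and 0.0140), at -0.54 without the 2 farthest arrays, -0.57 in arrays 5 to 8 and -0.65 in arrays 1 to 4. On rho alone, Rnf43 passed with the adipocyte mean (0.56) and Apcdd1 with the smooth muscle mean (-0.56), both at an adjusted p of 0.0491 by permutation test. No gene of the 9 had a called slope on the acinar mean, where 0.309% of targets were called, all upward.

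The genes did not move as 1 block from array to array. Over the 36 pairs of tested genes, residual correlations ran from -0.62 to 0.69 with a median of 0.07, and 6 passed at an adjusted p under 0.05 (permutation test on r, adjusted over 36 pairs). These p-values also run too small, so the weaker of the 6 passes may not hold. Cd44 and Wif1 had the highest, r = 0.69 and rho = 0.75 (adjusted p = 0.0054 and 0.00216), at 0.88 in arrays 5 to 8 and 0.64 in arrays 1 to 4. Rnf43 and Apcdd1 followed at r = 0.60 and rho = 0.64 (adjusted p = 0.0205 and 0.0182). Passing on r alone were Wif1 with Apcdd1 (r = 0.55, rho = 0.37, adjusted p = 0.0399 and 0.202) and Cd44 with Ephb2 (r = 0.53, rho = 0.50, adjusted p = 0.0399 and 0.0742). Cd44 with Ephb2 gave -0.15 in arrays 5 to 8 and 0.64 in arrays 1 to 4. Ascl2 ran opposite to Ephb2 (r = -0.62, rho = -0.62, adjusted p = 0.0205 and 0.0187) and to Cd44 (r = -0.57, rho = -0.57, adjusted p = 0.0340 and 0.0341), but in arrays 5 to 8 these were -0.07 and -0.35. No pair with the stem cell marker Lgr5 passed. Of the pairs with the Wnt reporter Axin2, Axin2 and Ephb2 passed on rho alone (r = -0.48, rho = -0.55, permutation test, adjusted p = 0.0749 and 0.0495).

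The genes most like each member over the 24 arrays, by Pearson r after group and number set means were removed, are given as a description. Wif1 was closest to Ms4a5 (r = 0.95) and Tph1, the serotonin-synthesizing enzyme of enterochromaffin cells (0.95), and Cd44 to Rassf4 (0.93) and Dmbt1, an epithelial scavenger receptor protein (0.92). Both neighbours of Wif1 and both of Cd44 themselves correlated with Osr2, at 0.91 to 0.92 and 0.72 to 0.74. Apcdd1 was closest to Fcgrt, the neonatal Fc receptor (0.91), and Pbld2 (0.90). Nearest to Ascl2 were Radx and Gsdmd (both 0.82), to Ephb2 Suz12 (0.80) and Dag1 (0.79), to Rnf43 Mknk1 and Unc93b1 (both 0.79), to Axin2 Crip2 (0.78) and Pdpn (0.75), to Sox9 Ncbp2 (0.76) and Zfp235 (0.74), and to Lgr5 Tgfbr2 and Epb41l2 (both 0.74).

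Other genes of the pathway, listed by role, also had few called differences between groups. Of 24 Wnt and R-spondin ligands and their secretion factors, 6 were bright enough to test, and 0 were called in any of the 6 group comparisons. The same held for 11 tested of 18 receptors and co-receptors, 9 of 19 secreted and membrane inhibitors, 9 of 16 genes of the beta-catenin transcription complex and 10 of 22 other stem cell genes. Of these 10 stem cell genes, 9 lay lower and 1 higher for ATB-346 against vehicle. Their median was -0.09 against 0.01 over all tested targets. Of 26 other intestinal Wnt targets, 14 were tested and 1 was called, Ccnd1, which encodes cyclin D1. This list shares Tcf7, Lef1, Nkd1, Notum and Tnfrsf19 with the lists before it, so a gene can count in more than 1. It had 9.87, 10.16 and 10.50 as lowest, median and highest signal in ATB-346 arrays, against 10.47, 10.62 and 10.70 in vehicle arrays, and fell by 0.41 ± 0.09 (SE, adjusted p = 0.0462 by limma). In that comparison 0.309% of all tested targets were called. That call was lost without any 1 of 17 arrays and without the number set in the model (adjusted p = 0.135). It was also lost in arrays numbered 5 to 8 alone, where no target was called. The acinar marker mean reached 14.01 in vehicle arrays and 6.98 in ATB-346 arrays, and its part in the Ccnd1 difference was not tested. Across the number sets of arrays, 1 of 6 ligands, 1 of 11 receptors, 0 of 9 inhibitors, 2 of 9 transcription complex genes, 5 of 14 targets and 2 of 10 stem cell genes were called, beside the 37.1% of all targets. The ligand was Wnt5b, lower in arrays 5 to 8 at -0.19 ± 0.06 (adjusted p = 0.0270 by limma). Also lower were 1 of the 2 transcription complex genes, 1 of the 5 targets and 1 of the 2 stem cell genes, and the rest were higher. Ctnnb1, which encodes beta-catenin, was 0.73 ± 0.06 higher in arrays 5 to 8, the Frizzled receptor gene Fzd1 1.05 ± 0.09, Efnb2, an ephrin ligand, 1.10 ± 0.09 and Id2, an inhibitor of DNA binding, 0.83 ± 0.07 higher (adjusted p = 1.21e-09, 1.91e-09, 1.29e-09 and 2.47e-09).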

How the data were processed

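Colon RNA from 24 samples was read on Illumina MouseRef-8 v2.0 arrays. The deposited values are linear intensities per gene and per probe; per the file headers, GenomeStudio 1.7.0 wrote them with its normalization switched off. Values were background-corrected (normexp, offset 50), quantile-normalized and taken to log2 with limma 3.58.1 in R 4.3.3. The 9048 targets with a mean above the median of all means (6.54) were tested in 1 limma fit with a mean per group and the number set (replicates 1 to 4 or 5 to 8), with Benjamini-Hochberg adjustment over all tested targets within each comparison.

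Symbols were updated for 3024 targets through RefSeq synonyms, and 977 kept the file's name. The probe table names no Ephb2 probe. Members and gene lists were chosen with earlier results of these data known. Of other lists, genes called between groups were named, and otherwise up to 3 genes per list and comparison could be. For each member, the 2 genes with the highest residual r were named. Genes called between number sets were named after their values were seen, and the slopes on Osr2, acinar and adipocyte markers, the Cd44 probes, the member counts and the set differences within groups were also added then. Whether same-numbered arrays pair was not settled. Over 30 such pairs across groups the residual r ran from -0.63 to 0.84, and it was above 0.1 in 16. With group means alone removed, 8 of the 24 arrays correlated best with arrays of their own number. Scripts were tested on simulated data.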

Additional observations from a re-analysis of the deposited data

Results flagged for a closer look

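Of 40 sets of values (10 genes in 4 groups), 3 held an array far from the rest of its group, where chance gives about 1 in 20. Wif1 was 7.47 on WT replicate 4, and the nearest WT array was at 6.72; Osr2 was 13.01 on that array. Ephb2 was 8.53 on ATB-346 replicate 4, with the nearest ATB-346 array at 8.77. Rnf43 was 6.89 on vehicle replicate 7, with the nearest vehicle array at 6.66. Their causes were not tested.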

How the results depend on the processing

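No called result reversed under any alternative run, and the count of the 9 genes called stayed at 0 in all 6 group comparisons under each. Of 1929 pairs of an uncalled gene difference and a setting, 116 turned sign, none of them called. Over all targets, the 28 calls for ATB-346 against vehicle became 0 without the number set in the model, 6 with the replicate block in its place, 16 in arrays numbered 1 to 4 alone, 0 in arrays 5 to 8 alone, 8 with median scaling, 17 with probe values, 1 with the acinar mean added and 53 with Osr2 added. Leaving out 1 array gave 3 (vehicle replicate 2) to 34 (vehicle replicate 8) calls. Naproxen against WT gave 4 calls with the adipocyte mean added, and 0 to 13 with 1 array left out (13 without WT replicate 4). With 1 array left out, the counts were 0 to 1 for naproxen against vehicle, ATB-346 against naproxen, ATB-346 against WT and the naproxen difference between number sets, and 0 to 2 for the ATB-346 difference between number sets. The number set gave 3358 calls, 2078 with median scaling and 2923 to 3387 with 1 array left out; 2 to 4 of the 9 genes were then called. Lgr5 passed between number sets without naproxen replicate 3 or ATB-346 replicate 5 (adjusted p = 0.0368 and 0.0493 by limma), and Wif1 passed without any 1 of 4 arrays. Dim signal limits Myc, which lay below the filter. The cause of these changes was not tested.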
